A study of Mus musculus with 4 samples.

Results

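The genes Nr4a1, Nr4a2, Nr4a3, Egr1, Egr2, Egr3, Nab1 and Nab2 were read in splenic Treg cells of mice with a Treg-specific deletion of Setd2 and of their controls. They were chosen by symbol and are 8 of the 24087 rows of the expression table. Each of the 8 symbols matched a row. Setd2 encodes the methyltransferase that places trimethylation on lysine 36 of histone H3, a mark of transcribed gene bodies. KO cells came from Foxp3Cre-YFPSetd2f/f mice and CTRL cells from littermates of genotype Foxp3Cre-YFPSetd2f/+, both on a C57BL/6 background, and the labels give no ages. Cre was driven by Foxp3 in both groups, and the CTRL mice therefore also carried the Cre and 1 floxed Setd2 allele. The cells were sorted from unchallenged spleens as CD3+CD4+YFP+. There were 2 libraries per genotype, named CTRL 1, CTRL 2, KO 1 and KO 2, and each pooled the cells of 2 mice. The p-values below measure the spread between these pools, so the spread between single mice is not seen. 

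NR4A proteins are orphan nuclear receptors and EGR proteins are zinc finger transcription factors. Both families are immediate-early genes, whose transcription starts within minutes of T cell receptor signalling and needs no new protein. Calcium, calcineurin and NFAT feed into Egr2 and Egr3, while the Ras and ERK kinases feed into Egr1 through ETS factors and SRF. The NAB proteins bind EGR factors and repress their targets. In Treg cells, which see self antigen continuously, Nr4a1 transcription is widely used as a readout of receptor signalling, and NR4A factors are known to maintain Foxp3. Egr2 and Egr3 are known for restraining T cell activation.

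The libraries were of similar depth, with at least 29988267 to 32686764 reads recovered from the steps of the FPKM values (fragments scaled by gene length and library total). The number of genes above 0 was less even. CTRL 1, the shallowest library, had 19100 such genes, and the others ranged from 15913 (CTRL 2) to 16410 (KO 1). The cause of this excess was not tested. A gene was tested if 2 or more libraries held it at 1 FPKM or above, which left 11399 genes, all 8 members included. KO 1 stood apart for these genes, with the highest value in 7 of the 8, so the fold change of each member is also given without it. The targeted gene was examined first. Over the whole gene, CTRL 1 had 23.4 FPKM and CTRL 2 had 25.3 FPKM of Setd2, and KO 1 had 21.3 FPKM and KO 2 had 19.5 FPKM. Both KO libraries were below both CTRL libraries, an arrangement that 35.5% of all genes tested showed. The difference did not pass the threshold (log2 fold change -0.24, standard error 0.076, limma adjusted p = 0.0970). The sorted identity was checked with 8 T cell and Treg markers, of which none was at 0. Their summed level was 2288 and 2378 FPKM in CTRL, with 2284 and 2259 FPKM in KO. The sum hides differences between the markers. Both KO libraries were below both CTRL libraries for 4 of the 8 (Foxp3, Il2ra, Cd3g and Cd4) and above them for 2 (Lck and Ikzf2). Of all genes tested, 35.5% and 29% had these arrangements, and 0 of the 8 markers passed the threshold.

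Nr4a1 and Egr1 were by far the most abundant members. On the FPKM scale, which is per gene length, Nr4a1 ranked 1st and Egr1 2nd of the 8 in all 4 libraries, and Egr3 and Egr2 ranked 7th and 8th in all 4. The order in between was not fixed. In CTRL 1 it ran Nab2, Nab1, Nr4a2 and Nr4a3, whereas in KO 1 it ran Nr4a2, Nr4a3, Nab2 and Nab1. Nr4a2 and Nr4a3 did not separate beyond their spread, since the ratio of Nr4a2 to Nr4a3 was 1.39 and 0.997 in CTRL and 1.07 and 1.17 in KO. Nr4a1 exceeded Nr4a3 by 16.9 and 14.3 times in CTRL 1 and CTRL 2, by 9.52 times in KO 1 and by 14.9 times in KO 2. The lower ratio of KO 1 comes with a higher level of Nr4a3 there. In KO 2 the ratio lay between those of the CTRL libraries. 

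**Figure D1:**
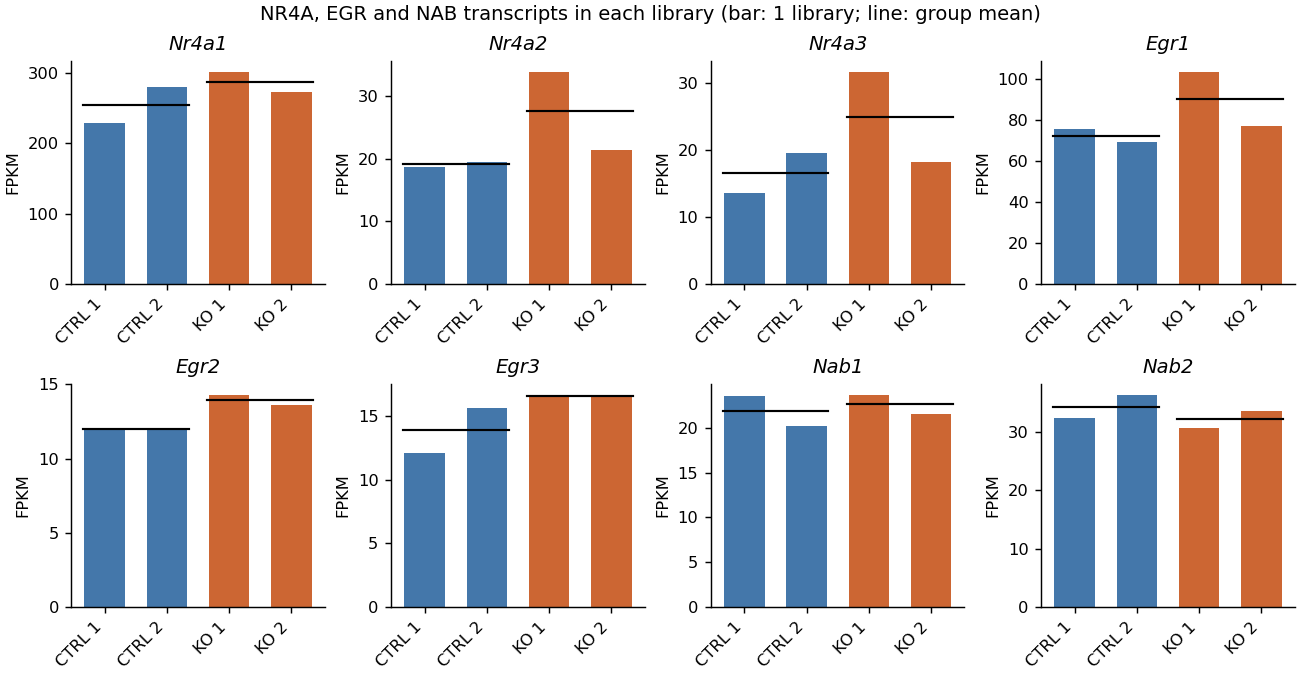
FPKM (vertical axis, from 0, with its own scale in each panel) of the 8 members in the 4 libraries (horizontal axis). A bar is 1 library and a black line is the mean of the 2 libraries of a genotype. KO 1 holds the highest bar for every member except Nab2, and Nr4a2, Nr4a3 and Egr1 are much higher in KO 1 than in KO 2.

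To show where the known signals meet these genes, the 250 bases before the annotated start sites were read from RefSeq (GRCm38.p6). Windows were read for 6 of the 8 members. Egr1 was left out of the search beforehand, and no window was found for Egr3. Capitals mark the motifs searched on both strands: the EGR site GCGNGGGCG, the NR4A element AAAGGTCA, the ETS core CCGGAA, the CArG box, which SRF binds, and TGACG, which is part of the cyclic AMP element that CREB binds. The sequences are those of the NR4A genes, 1 of the Egr2 start sites, and Egr4, a further EGR gene that is not among the 8. Each is written 5′ to 3′ on the strand of its gene and stops before any annotated exon. For Nr4a3 this leaves the 98 bases farthest from the start site.
Nr4a1, chr15:101266596-101266845, plus strand: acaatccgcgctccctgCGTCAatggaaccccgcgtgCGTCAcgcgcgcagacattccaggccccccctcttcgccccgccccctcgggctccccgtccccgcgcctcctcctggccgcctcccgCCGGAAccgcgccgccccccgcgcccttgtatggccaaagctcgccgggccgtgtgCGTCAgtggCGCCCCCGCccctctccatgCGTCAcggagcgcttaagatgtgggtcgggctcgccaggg
Nr4a2, chr2:57124004-57124253, minus strand: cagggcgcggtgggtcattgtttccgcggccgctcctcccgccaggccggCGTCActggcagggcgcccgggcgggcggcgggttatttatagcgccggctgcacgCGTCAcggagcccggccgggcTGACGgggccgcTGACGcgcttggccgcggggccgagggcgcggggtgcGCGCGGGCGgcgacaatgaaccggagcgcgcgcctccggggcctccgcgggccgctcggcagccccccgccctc
Nr4a3, chr4:48045055-48045152, plus strand: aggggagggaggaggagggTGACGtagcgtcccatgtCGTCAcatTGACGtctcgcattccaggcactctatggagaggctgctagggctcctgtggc
Egr2, chr10:67537619-67537868, plus strand: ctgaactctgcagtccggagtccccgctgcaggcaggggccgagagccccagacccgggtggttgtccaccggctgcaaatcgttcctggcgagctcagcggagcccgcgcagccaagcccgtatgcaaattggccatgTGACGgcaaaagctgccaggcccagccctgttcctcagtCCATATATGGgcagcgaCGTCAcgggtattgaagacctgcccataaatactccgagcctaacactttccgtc
Egr4, chr6:85513590-85513839, minus strand: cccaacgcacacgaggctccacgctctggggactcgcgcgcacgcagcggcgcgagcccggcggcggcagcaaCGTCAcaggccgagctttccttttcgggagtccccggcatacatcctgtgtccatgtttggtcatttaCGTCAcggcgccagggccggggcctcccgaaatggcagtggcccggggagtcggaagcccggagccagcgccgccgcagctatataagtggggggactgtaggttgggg

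Among these runs TGACG was the motif most often found. Nr4a1 and Nr4a2 held 4 copies each and Nr4a3 held 4 in its full window, of which 3 are printed. Egr2 and Egr4 held 2 each. In all, 17.8% of 32851 RefSeq promoter windows of the same length held at least 1. The CArG box was found in 1.47% of all windows and in 4 of the 5 Egr2 windows, once in each, and 3 of these windows overlap and share the same box. The EGR site was found in 4.7% of all windows, once each in Nr4a1 and Nr4a2 and 3 times in Nab1, whose protein binds EGR factors. The ETS core was found in 12% of all windows, once in Nr4a1 and 3 times in another Egr2 window, where matches on both strands overlap. The NR4A element was in none of the members' windows and in 1.34% of all. No motif was found in the Nab2 window. The motifs printed do not overlap each other within these 5 runs. A match describes letters only, and binding was not measured.

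The question of the comparison was which transcripts depend on Setd2 in Treg cells at steady state. None of the 8 members passed the threshold of adjusted p under 0.05 in either direction (limma with Benjamini-Hochberg adjustment over 11399 genes), while 9.75% of all genes tested did, 5.1% higher and 4.65% lower in KO. At an unadjusted p under 0.05 there was 1 member, Egr2, compared with 34.7% of all genes tested. The fold change was above 0 for 7 of the 8 members and below 0 for Nab2. Their median log2 fold change was 0.23, and that of all genes tested was -0.022. In 4 members, Nr4a2, Egr1, Egr2 and Egr3, both KO libraries lay above both CTRL libraries, an arrangement that 29% of all genes tested showed. None of the members had both KO libraries below both CTRL libraries, which 35.5% of all genes tested had. In bulk RNA, fewer cells with a transcript and less of it per cell cannot be told apart.

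**Figure D2:**
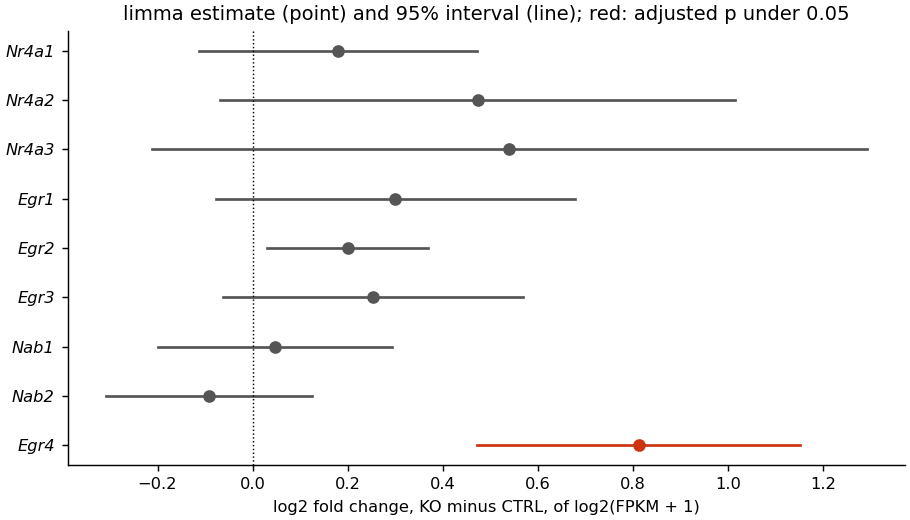
Log2 fold change of KO minus CTRL on log2(FPKM + 1) (horizontal axis) for the 8 members and Egr4 (vertical axis). Points are limma estimates from 2 libraries per genotype, lines are 95% confidence intervals and red marks adjusted p under 0.05. The interval of every member except Egr2 spans 0, and Egr4, which is not among the 8, lies at 0.81 but could be tested only through its KO values, since both CTRL libraries were below 1 FPKM.

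Nr4a1, the family member most used as a reporter of receptor signalling, showed no detectable difference between genotypes. This gene (ENSMUSG00000023034, chromosome 15, 101254269 to 101274795, plus strand, GRCm38) had 229 FPKM in CTRL 1, 280.3 FPKM in CTRL 2, 302 FPKM in KO 1 and 273 FPKM in KO 2. KO 2 fell between the CTRL libraries, so the groups overlapped. The mean was 255 ± 36.4 FPKM in CTRL and 287 ± 20.8 FPKM in KO (SD, n = 2 each), and at least 18598 reads stood behind each value. The log2 fold change was 0.18 with a 95% interval from -0.11 to 0.47 (limma adjusted p = 0.321). After quantile normalization it was 0.045, and with 1 library left out it ran from 0.034 without CTRL 1 to 0.33 without CTRL 2, with 0.11 without KO 1 and 0.25 without KO 2. In linear terms the interval ran from 0.924 to 1.39 times, so a larger rise or fall of Nr4a1 than that lies outside it.

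Nr4a2 and Nr4a3 had the largest fold changes among the members and also the widest errors. Nr4a2 (ENSMUSG00000026826, chromosome 2, 57106830 to 57124003, minus strand) had 18.8 FPKM in CTRL 1, 19.5 FPKM in CTRL 2, 33.9 FPKM in KO 1 and 21.3 FPKM in KO 2. KO 1 stood well apart, while KO 2 was just above the CTRL libraries. The log2 fold change was 0.47 (95% interval -0.068 to 1.02, limma adjusted p = 0.185), and it was 0.15 without KO 1 and 0.80 without KO 2. Nr4a3 (ENSMUSG00000028341, chromosome 4, 48045153 to 48086447, plus strand) had 13.5 FPKM in CTRL 1, 19.5 FPKM in CTRL 2, 31.7 FPKM in KO 1 and 18.3 FPKM in KO 2. Here KO 2 was below CTRL 2, so the groups overlapped. The log2 fold change of Nr4a3 was 0.54 (95% interval -0.21 to 1.29, limma adjusted p = 0.253), with 0.16 without KO 1 and 0.92 without KO 2. Its standard error of 0.293 was at the 97.2 percentile of all genes tested. At 836 or more reads in each library, counting error was small beside this spread.

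The EGR factors were slightly higher in both KO libraries than in both CTRL libraries, although none passed the threshold. Egr1 (ENSMUSG00000038418, chromosome 18, 34859823 to 34864984, plus strand), the ERK-responsive member, had 75.6 FPKM in CTRL 1, 69.5 FPKM in CTRL 2, 103.8 FPKM in KO 1 and 77.1 FPKM in KO 2. KO 2 exceeded CTRL 1 by little, and KO 1 was the library that stood apart. The log2 fold change was 0.30 (95% interval -0.077 to 0.68, limma adjusted p = 0.217). It was 0.088 without KO 1 and 0.51 without KO 2.

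Egr2 was the member with the tightest values. The gene (ENSMUSG00000037868, chromosome 10, 67535475 to 67542188, plus strand) was at 12.0 FPKM in both CTRL libraries, at 14.3 FPKM in KO 1 and at 13.6 FPKM in KO 2. The groups did not overlap, and the gap between them was wider than the spread within each. The means were 12.0 ± 0.024 FPKM in CTRL and 14.0 ± 0.47 FPKM in KO (SD, n = 2 each), 1.16 times higher in KO. The log2 fold change was 0.20 (standard error 0.066, 95% interval 0.031 to 0.37), for which the unadjusted limma p was 0.0289 and the adjusted p 0.106, which missed the threshold. Leaving out any 1 library gave 0.17 to 0.23, with the lowest value without KO 1.

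Egr3 (ENSMUSG00000033730, chromosome 14, 70077203 to 70082614, plus strand) was at 12.1 FPKM in CTRL 1 and 15.6 in CTRL 2. KO 1 and KO 2 were nearly equal, at 16.7 and 16.6 FPKM. The spread of this gene thus lay within CTRL. Its log2 fold change was 0.25 (95% interval -0.063 to 0.57, limma adjusted p = 0.213), with 0.083 without CTRL 1, 0.42 without CTRL 2 and 0.25 without KO 1.

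The NAB corepressors showed no common direction. Nab1 (ENSMUSG00000002881, chromosome 1, 52457294 to 52500679, minus strand) had 23.6 FPKM in CTRL 1, 20.3 FPKM in CTRL 2, 23.7 FPKM in KO 1 and 21.6 FPKM in KO 2. Its groups overlapped almost wholly (log2 fold change 0.047, 95% interval -0.20 to 0.29, limma adjusted p = 0.766), and the sign turned without CTRL 2 (-0.058) and without KO 1 (-0.018). Nab2 (ENSMUSG00000025402, chromosome 10, 127660918 to 127668568, minus strand) had 32.3 FPKM in CTRL 1, 36.3 FPKM in CTRL 2, 30.6 FPKM in KO 1 and 33.6 FPKM in KO 2. KO 2 lay between the CTRL libraries, so the groups overlapped (log2 fold change -0.092, 95% interval -0.31 to 0.13, limma adjusted p = 0.489). The fold change was -0.17 without CTRL 1, -0.0095 without CTRL 2 and -0.027 without KO 1. Nab2 was the sole member with overlapping genes in GENCODE vM21, all on the other strand. They were Stat6 (40 bp of shared exon), Nemp1 (151 bp) and the antisense Gm16229 (1050 bp), for which no value was read. Stat6 was at 83.8 to 87.6 FPKM in the 4 libraries, and Nemp1 was at 4.15 and 3.94 FPKM in CTRL, with 2.90 and 3.25 FPKM in KO. Neither passed the threshold, with limma adjusted p of 0.782 and 0.101. The use of strand in counting was not stated, so the value of Nab2 is uncertain.

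KO 1 had the highest value of the 4 libraries for 7 of the 8 members, with Nab2 as the exception. Of all genes tested, 22.8% were highest in KO 1. KO 1 was above KO 2 in 7 members, and in 46.4% of all genes tested. The difference between KO 1 and KO 2 on the log2(FPKM + 1) scale was 0.76 for Nr4a3, 0.65 for Nr4a2 and 0.42 for Egr1, at the 97.8, 97.0 and 93.8 percentiles of the absolute difference over all genes tested, whose median was 0.091. Egr2 and Egr3 differed between KO 1 and KO 2 by 0.065 and 0.012. The members also differed within CTRL. CTRL 1 was below CTRL 2 by 0.50 for Nr4a3, 0.34 for Egr3 and 0.29 for Nr4a1 on that scale, at the 96.2, 92.5 and 89.8 percentiles. The median standard error was 0.12 over the members and 0.087 over all genes tested.

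**Figure D3:**
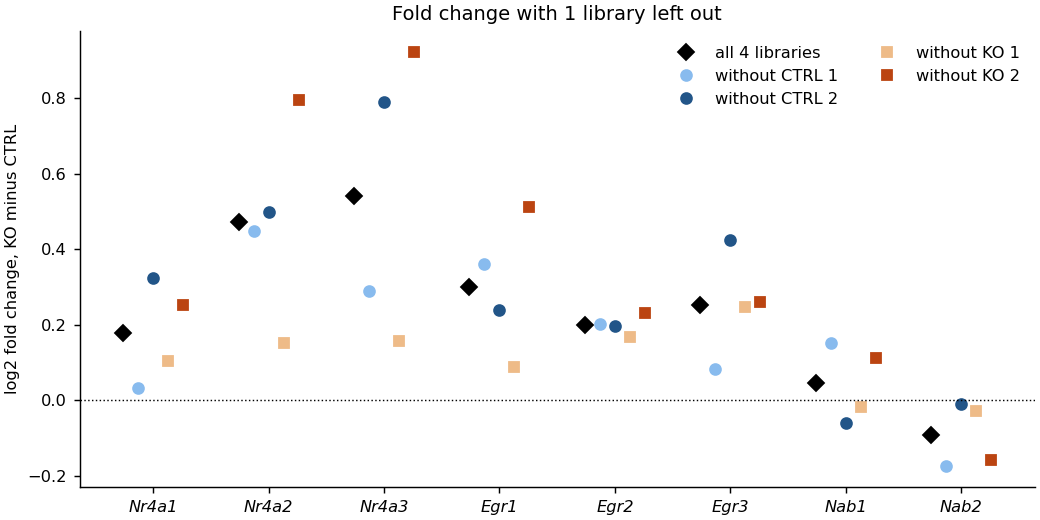
Log2 fold change of KO minus CTRL on log2(FPKM + 1) (vertical axis) for each member (horizontal axis), with all 4 libraries (black diamonds) and with 1 library left out (coloured points). Leaving out KO 1 takes Nr4a2, Nr4a3 and Egr1 down to 0.15, 0.16 and 0.088, whereas Egr2 stays between 0.17 and 0.23.

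Markers of other cells and of handling were read beside this. Summed over 5 myeloid markers, the level was 163 FPKM in CTRL 1 but 103 FPKM in CTRL 2, and 202 FPKM in KO 1 but 83.2 FPKM in KO 2, most of it from Lyz2, and none of the 5 was at 0. Among the erythroid markers, the globin gene Hba-a1 had 11.0 FPKM in CTRL 1 but 1.70 FPKM in CTRL 2, and 18.4 FPKM in KO 1 but 4.39 FPKM in KO 2, and Hbb-bs was at 0 in all but KO 1. For 5 B cell markers the sum was 22.0 and 18.5 FPKM in CTRL, with 32.4 and 18.7 FPKM in KO, with none at 0. The myeloid sum and Hba-a1 were thus higher in CTRL 1 than in CTRL 2, and higher in KO 1 than in KO 2. The members went both ways within CTRL. CTRL 1 was below CTRL 2 for Nr4a1, Nr4a2, Nr4a3, Egr3 and Nab2, and above it for Egr1, Egr2 and Nab1. The sums of 2 CD8 T cell markers (8.49 to 11.4 FPKM) and 3 NK cell markers (22.2 to 27.1 FPKM) varied less. The part of these cells in the members' values was not tested.

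Genes known to be induced when cells are isolated under stress also mostly stood highest in KO 1. The 17 genes of this list summed to 2712 FPKM in CTRL 1, 2809 FPKM in CTRL 2, 3679 FPKM in KO 1 and 3180 FPKM in KO 2, and 12 of the 16 tested were highest in KO 1. Their median log2 fold change was 0.23. Of the 16, 2 rose past the threshold and none fell past it, while 9.75% of all genes tested passed, and the difference was not tested. Both KO libraries were above both CTRL libraries in 9 of the 16 and below them in 2, compared with 29% and 35.5% of all genes tested. The 2 below were Hspa1b and Hspe1, named here after their values were seen. Their log2 fold changes were -0.78 and -0.23, and neither passed the threshold. Socs3, a feedback inhibitor of cytokine receptors, was at 57.9 and 55.7 FPKM in CTRL, with 108.4 and 88.4 FPKM in KO (log2 fold change 0.78, limma adjusted p = 0.0351). Cebpb, a transcription factor of inflammation, was at 33.6 and 33.4 FPKM in CTRL, with 59.7 and 48.9 FPKM in KO (log2 fold change 0.67, limma adjusted p = 0.0365). The part of cell handling in the members' values was not tested.

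Other immediate-early genes did not all move the same way. Of 23 tested, 3 rose (Egr4, Nfkbid and Dusp2), 1 fell (Fos) and the rest did not pass. The share of all genes tested that passed was 9.75%, and a difference from it was not tested. The median log2 fold change was 0.15, and 15 of the 23 were highest in KO 1. Egr4, the fourth EGR gene (ENSMUSG00000071341, chromosome 6, 85511121 to 85513589, minus strand), was near the filter, at 0.973 and 0.894 FPKM in CTRL, with 2.66 and 2.15 FPKM in KO. At least 67 and 65 reads in CTRL and 197 and 160 reads in KO stood behind these values. Egr4 passed the filter through the KO libraries alone, so it could be tested only because it was higher there. Both KO libraries were clearly above CTRL, and the log2 fold change was 0.81 (95% interval 0.47 to 1.15, limma adjusted p = 0.0379). The ratio of the FPKM means was 2.57.

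Fos, the AP-1 subunit that shares ERK and SRF inputs with Egr1, was lower in KO. CTRL 1 and CTRL 2 had 277 and 287 FPKM, whereas KO 1 and KO 2 had 209 and 206 FPKM. KO 1 and KO 2 agreed closely here, unlike in Egr1, and the groups did not overlap (log2 fold change -0.44, standard error 0.053, limma adjusted p = 0.0346). Nfkbid, an atypical nuclear inhibitor of NF-κB, was at 89.5 and 94.9 FPKM in CTRL, with 141.6 and 118.6 FPKM in KO (log2 fold change 0.49, limma adjusted p = 0.0462). Dusp2, a phosphatase that inactivates ERK, was at 168 and 173 FPKM in CTRL, with 215 and 202 FPKM in KO (log2 fold change 0.29, limma adjusted p = 0.0476). Nfkbid and Dusp2 lost the call without the variance trend and after quantile normalization.

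**Figure D4:**
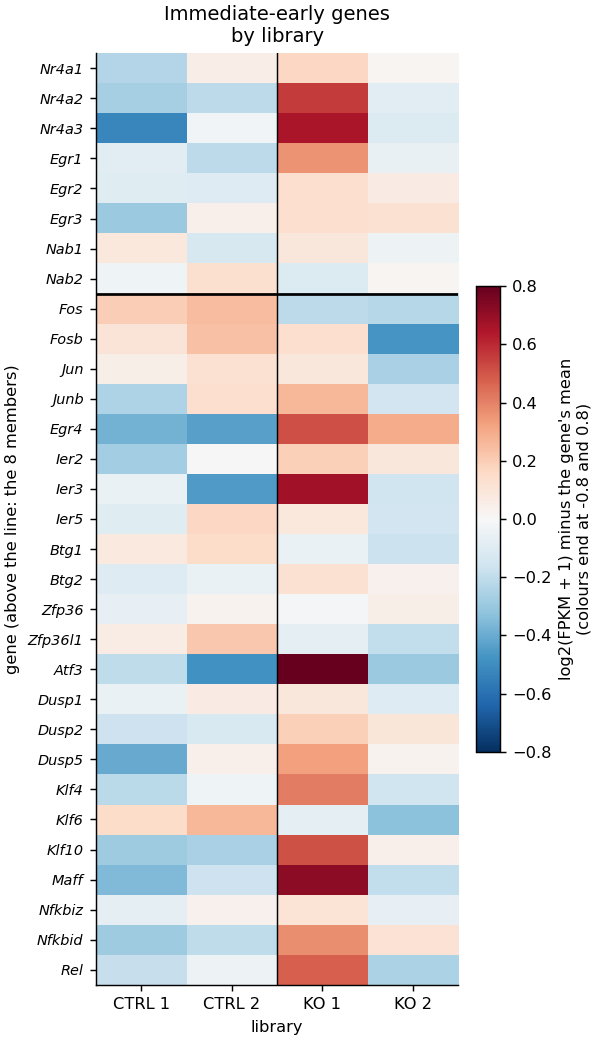
Each member (above the line) and each of the other immediate-early genes (below it) as its log2(FPKM + 1) minus the mean of the gene's 4 libraries (colour, with the scale ending at -0.8 and 0.8), by library (columns). KO 1 is red for most members and for 15 of the other 23 genes it is the highest library, while Fos is blue in both KO libraries and Nab2 is highest in CTRL 2.

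The signalling components that feed into these genes had fold changes on both sides of 0, and 1 of them passed the threshold. Of 24 genes on this list, including calcineurin subunits, NFAT factors, ERK kinases, SRF with its partners and MEF2 factors, 23 were tested. Nfatc1 rose, none fell and the median log2 fold change was 0.034, while 9.75% of all genes tested passed in either direction. Both KO libraries were above both CTRL libraries in 8 of the 23 and below them in 7, arrangements that 29% and 35.5% of all genes tested showed. Nfatc1, a calcineurin-dependent factor, was at 57.5 and 57.9 FPKM in CTRL, with 71.0 and 69.6 FPKM in KO, with little spread within each genotype (log2 fold change 0.28, standard error 0.051, limma adjusted p = 0.0420). It lost the call without the variance trend and after quantile normalization. Rasgrp1, the exchange factor that couples diacylglycerol to Ras, had a log2 fold change of -0.22 (limma adjusted p = 0.110), and Mef2d one of 0.15 (limma adjusted p = 0.358).

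Among genes of later T cell activation some passed in both directions. Of 17 genes, 15 were tested, 5 rose (Irf4, Batf, Tnfrsf9, Tnfrsf4 and Mki67) and 1 fell (Spry1), with a median log2 fold change of 0.17. Of all genes tested, 9.75% passed, and the difference from this list was not tested. The number that passed was 3 without the variance trend and 0 with all genes above 0 tested, compared with 6 here. Irf4, a factor whose level follows receptor signal strength, was at 18.0 and 16.7 FPKM in CTRL, with 35.7 and 28.0 FPKM in KO (log2 fold change 0.83, limma adjusted p = 0.0355). Its partner Batf was at 79.7 and 72.9 FPKM in CTRL, with 107.6 and 108.2 FPKM in KO (0.50 on the log2 scale, limma adjusted p = 0.0346). Unlike Nr4a2 and Nr4a3, these genes kept both KO libraries well above CTRL. Tnfrsf9, a costimulatory receptor, rose by 0.38 on the log2 scale (limma adjusted p = 0.0400), and it lost the call without the variance trend and after quantile normalization. Spry1, an inhibitor of Ras signalling, fell from 17.8 ± 1.35 to 12.6 ± 0.062 FPKM (SD, n = 2 each), a log2 fold change of -0.47 (limma adjusted p = 0.0382).

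Genes reported as targets of NR4A or EGR factors did not pass here. None of the 18 tested passed in either direction, while 9.75% of all genes tested did, and the difference was not tested. Their median log2 fold change was 0.074. Both KO libraries were above both CTRL libraries in 7 of the 18 and below them in 7, compared with 29% and 35.5% of all genes tested. In the other settings with all libraries 0 to 5 of these targets passed. Of the 18, 4 are also in the Treg marker list. Ctla4, an inhibitory receptor, was at 546 and 542 FPKM in CTRL, with 656 and 534 FPKM in KO (log2 fold change 0.12, limma adjusted p = 0.470), so KO 1 alone stood above. Dgka, a diacylglycerol kinase that EGR factors are known to regulate, was at 435 and 421 FPKM in CTRL, with 340.1 and 366 FPKM in KO. Its groups did not overlap, and it missed the threshold narrowly (log2 fold change -0.28, limma adjusted p = 0.0554), and it passed in 5 of the 9 other settings. Cdkn1a, a cell cycle inhibitor named here after its values were seen, was at 5.66 and 5.26 FPKM in CTRL, with 17.5 and 10.1 FPKM in KO (log2 fold change 1.15, limma adjusted p = 0.0509).

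**Figure D5:**
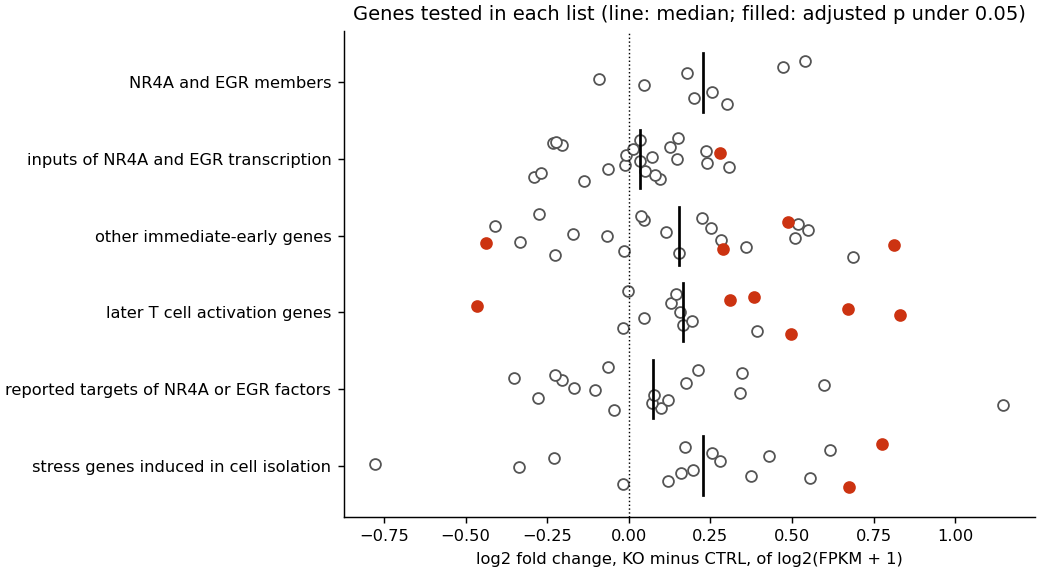
Log2 fold change of KO minus CTRL on log2(FPKM + 1) (horizontal axis) of each gene tested in the members and in the 5 other lists (rows). Points are genes, filled where adjusted p was under 0.05, and black lines are medians. The 8 members have a median of 0.23 and no filled point, and the later T cell activation genes have 6.

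The calls named in these lists shared a limit. With all 19888 genes above 0 tested, none of the genes in the table passed, and with 1 library left out 0 or 1 gene did. All of the called genes named with values kept their direction in every fit in which they were tested. CTRL 1 held the most genes above 0, and its part in the fit over all 19888 was not tested.

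The genes whose profile over the 4 libraries was nearest to that of the members were sought among all genes tested. To the mean of Nr4a1, Nr4a2 and Nr4a3, centred on the log2(FPKM + 1) scale, the nearest were Inka1, Tgif2 and Zc3h12a, at Euclidean distances of 0.054, 0.070 and 0.093. Zc3h12a, which encodes an RNase that degrades transcripts of activated T cells, was at 68.5 and 84.0 FPKM in CTRL, with 129.6 and 87.7 FPKM in KO. Like the NR4A genes, it was highest in KO 1 and lowest in CTRL 1. To the mean of Egr1, Egr2 and Egr3 the nearest were Lonrf1, Trav10n and Pdlim4, at 0.0080, 0.015 and 0.020. Trav10n is a receptor segment with near-identical copies, so its value is uncertain. None of these 6 passed the threshold, with limma adjusted p from 0.142 to 0.263. With 4 libraries such likeness is a description only.

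The members were also compared by length, since H3K36 methylation lies along gene bodies. Egr1, Egr3 and Egr2 are short, with 5162, 5412 and 6714 bp from first to last base, at the 15.7, 16.5 and 20.1 percentiles of all genes tested, whose median was 21165 bp. Nr4a1 and Nr4a2, with 20527 and 17174 bp, lay near the median, and Nr4a3 and Nab1, with 41295 and 43386 bp, lay at the 71.0 and 72.4 percentiles. The length of Nr4a1 is counted from its first annotated base at 101254269. The RefSeq start site used for its promoter, at 101266846, lies inside that body, so the gene is shorter when read from there. Nab2 had 7651 bp. No member passed the threshold, and a link between length and fold change was not tested.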

How the data were processed

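RNA was enriched with oligo(dT) from approximately 1000000 sorted cells per library and sequenced in pairs of 150 bp. Reads were mapped by the authors to mm10 (GRCm38) with HISAT2 2.2.1 and counted per gene with featureCounts 2.0.1, and the authors made their own comparison in edgeR 3.34.0. The deposited values were FPKM, made by the authors. Gene length, annotation release, strand use and multi-mapped reads were not given in the sources used here. Control columns labelled WT were read as CTRL by number.

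Low FPKM values stood in whole-number steps, and 99.995% of the 19888 rows above 0 gave whole reads (tolerance 0.0002 reads plus 2e-08 of the count). Those are lower bounds, since a factor shared by all 4 counts of a gene is unseen.

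limma 3.58.1 (R 4.3.3; lmFit, eBayes with trend) was fitted to log2(FPKM + 1) over genes that reached 1 FPKM in 2 or more libraries. The test was two-sided with Benjamini-Hochberg adjustment over all genes tested, called under 0.05. That scale understates changes of low genes. No count test was run as the main test, since the values were not counts. The procedure was run on simulated data with the same added spread for all genes and planted changes of a single size. Genes of wider spread and smaller change, such as Nr4a3, were not covered by it. Gene positions came from GENCODE vM21. The 8 members, 5 gene lists and 6 marker lists were chosen with earlier results of these data known. Named were all members, Setd2, genes overlapping a member, the called genes of each list (at most the 4 of lowest adjusted p, or the 2 most abundant where fewer than 2 passed) and the 3 nearest profiles. Outside this rule, values are also given for Cdkn1a, Hbb-bs, Hspa1b and Hspe1. The remaining genes of the lists enter by name only or in counts and sums. The sum over the erythroid markers is not reported here. Alternatives were 9 settings and leaving out each library. Python 3.11.15, numpy 2.4.6, pandas 2.3.3, scipy 1.17.1 and matplotlib 3.10.9 were used.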

Additional observations from a re-analysis of the deposited data

How the results depend on the processing

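In all 14 fits 0 of the 8 members passed the threshold, and the smallest adjusted p of a member was 0.0651 (limma), for Egr1 with the replicate block. Every member kept its sign except Nab1, which ran from -0.058 to 0.15 with 1 library left out. Over the 9 settings with all libraries the fold changes moved by over 1.5 times for Nr4a1 alone (0.045 after quantile normalization). The numbers of list genes called moved more, and the cause was not tested. The order below is inputs, other immediate-early genes, later activation genes, reported targets and stress genes, for which 1, 4, 6, 0 and 2 passed. With all genes above 0 tested, 0 passed in each list. With 1 library left out, 0 passed in each list, and 0 or 1 of all genes tested, so these fits say nothing on single calls. Without the variance trend 0 inputs, 2 other immediate-early and 3 later activation genes passed. With a mean FPKM above 5 there were 2 inputs, 3 targets and 4 stress genes. Robust eBayes gave 2 inputs and 1 target, quantile normalization 0 inputs and 2 targets, and a pseudocount of 0.1 and median-ratio scaling 1 target each. limma-voom on recovered reads gave 2 inputs, 5 targets and 4 stress genes.

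With the replicate number as a block, 2 inputs, 5 targets and 8 stress genes passed, and 1773 of all genes tested compared with 1111 without it. No label links the numbers to a shared litter or day, and across genes the deviations of libraries with the same number correlated with Pearson r = 0.342 and Spearman rho = 0.055. With 2 pairs the samples share a number only, and the block changed no member's call. Genes called ranged from 0 to 1895 over the settings, the highest with limma-voom. Depth did not limit the members, of which the least covered, Egr3, had at least 564 reads, and the precision was set by 2 libraries per group.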
